A study of Mus musculus with 6 samples.

Results

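Conventional dendritic cells were a rare population of the pancreatic lymph node, the node that drains the pancreas: 196 of 56310 filtered cells in 6 mice. They were chosen by their own transcripts. A barcode with at least 500 UMIs (unique molecular identifiers, 1 per captured RNA molecule), at least 300 genes and at most 10% mitochondrial UMIs was kept when it held at least 2 UMIs of the class II gene H2-Aa and at least 2 of the 8 genes Flt3, Zbtb46, Xcr1, Clec9a, Wdfy4, Cd209a, Itgax and Clec10a. It also had to hold no UMI of Cd3e, Cd79a, Ms4a1, Fscn1, Siglech or C1qa, which mark T cells, B cells (2 genes), migratory dendritic cells, plasmacytoid dendritic cells and macrophages. Of the 196 cells, 114 had a UMI of Xcr1 or Clec9a and are called cDC1 here; the other 82 are called Xcr1/Clec9a-negative cells. The study compared 3 mice carrying a floxed gene and the CD4-Cre transgene (Cre-positive) with 3 mice that carried the floxed gene and no Cre (Cre-negative). Single-cell suspensions of pancreatic lymph nodes were run on a 10x Genomics droplet platform. The CD4-Cre transgene is known to act in T cells, and whether Cre was active in any dendritic cell was not tested. Sex, age and strain were not in the labels used here.

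Conventional dendritic cells take up antigen, cut it into peptides and show these on class I and class II molecules to naive T cells. The cDC1 lineage depends on the transcription factors Irf8 and Batf3, displays the chemokine receptor Xcr1 and the dead-cell receptor Clec9a, and is known for cross-presentation, the display of engulfed antigen on class I molecules to CD8 T cells. The cDC2 lineage carries Sirpa, uses Irf4 and Klf4, and is known for priming CD4 T cells. Cells that reach a node from the tissue carry a maturation program with Ccr7 and Fscn1, and the gate left those with Fscn1 out.

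The 3 sequences below are shown because Xcr1 and Clec9a split the cells and Cd207 was among the genes with the largest cDC1 excess. They are the 250 bases before the annotated start of each gene, from RefSeq on GRCm38.p6, read 5′ to 3′ on the gene's strand. Capitals mark a match, on either strand, to TTTC and TGA with 4 bases between them (Xcr1 and Clec9a) or to the letters TGANTCA (Cd207). The Xcr1 bases lie at chr9:123862030-123862279 on the minus strand, those of Clec9a at chr6:129408612-129408861 on the plus strand, and those of Cd207 at chr6:83677858-83678107 on the minus strand.
Xcr1: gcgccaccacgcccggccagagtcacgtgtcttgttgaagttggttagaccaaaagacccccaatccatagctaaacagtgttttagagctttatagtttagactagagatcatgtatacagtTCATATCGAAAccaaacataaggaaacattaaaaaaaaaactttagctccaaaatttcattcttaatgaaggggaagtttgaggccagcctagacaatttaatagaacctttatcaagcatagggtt
Clec9a: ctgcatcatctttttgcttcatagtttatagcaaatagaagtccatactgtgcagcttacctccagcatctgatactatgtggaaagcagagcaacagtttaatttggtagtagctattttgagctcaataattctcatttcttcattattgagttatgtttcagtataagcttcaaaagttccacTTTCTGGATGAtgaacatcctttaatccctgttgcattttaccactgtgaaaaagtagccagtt
Cd207: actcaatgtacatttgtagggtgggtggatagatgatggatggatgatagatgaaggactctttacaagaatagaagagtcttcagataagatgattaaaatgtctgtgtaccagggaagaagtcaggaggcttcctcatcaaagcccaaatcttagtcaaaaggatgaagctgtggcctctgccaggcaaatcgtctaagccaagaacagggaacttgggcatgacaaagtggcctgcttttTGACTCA
The match began 127 bases before the Xcr1 start, 64 before the Clec9a start and 7 before the Cd207 start. TTTC and TGA with 4 bases between them, an arrangement known from composite sites of IRF and AP-1 family factors such as Batf3, was present in 3 of 12 genes that were higher in cDC1 and had a window (Clec9a, Gcsam and Xcr1), in 2 of 12 that were lower (Ccr6 and Ffar2), and in 5.27% of 27025 genes with a window of 250 bases before to 50 after a start. TGANTCA, the AP-1 letters, was present in 2 of 12 higher genes (Cd207 and P2ry14), 2 of 12 lower genes (F11r and Ffar2) and 8.97% of all. A pair of GAAA with 2 bases between them, the core of the interferon-stimulated element, was in 0 of 12 higher genes, 1 of 12 lower genes (Sirpb1a) and 3.99% of all. GGAA and GAAA with 2 bases between them, an arrangement of composite ETS and IRF sites, was in 1 of 12 (Cd8a), 1 of 12 (Ffar2) and 3.16% of all. The 4 motifs were searched on both strands, and matches of the last pair cannot start at the same base of a strand. The higher genes are the 15 of largest cDC1 excess together with Xcr1 and Clec9a, which are higher by the rule, and the lower genes the 15 of largest deficit, as far as they had a window. Cd207 ranked 14 by cDC1 excess. Irf8, Naaa, Cd36 and Mpeg1, also among the 15, had windows without a match to any of the 4 motifs and are not printed. Cd8a and Gcsam had a match and are not printed either. All matches given here are a description of letters, with no test.

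Each Cre-positive mouse gave 27, 41 and 39 conventional dendritic cells, and each Cre-negative mouse gave 22, 39 and 28. Of these, 20, 18 and 25 were cDC1 in Cre-positive mice and 12, 22 and 17 in Cre-negative mice, which left 7, 23 and 14 Xcr1/Clec9a-negative cells in Cre-positive mice and 10, 17 and 11 in Cre-negative mice. The libraries held between 8209 and 10936 barcodes and between 47149014 and 61321105 UMIs each. A dendritic cell in the gate had a median of 5268.5 UMIs and 1173 genes. The cDC1 were shallower, with medians of 4853 UMIs and 1115 genes, against 7508 UMIs and 2269 genes in Xcr1/Clec9a-negative cells. A single cDC1 with 32045 UMIs made up 29.9% of the summed UMIs of its subset in Cre-negative mouse 1. The largest cDC1 made up 28.25% in Cre-negative mouse 3, 19.62% in Cre-positive mouse 3 and 10.65% to 14.91% in the remaining mice. Cell barcodes that recurred in another library numbered 418, and none was shared between gated cells. Removing the highest Scrublet doublet scores, at 0.8% per 1000 barcodes of a library, would have taken out 7 of the 196 cells; they were kept.

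**Figure D1:**
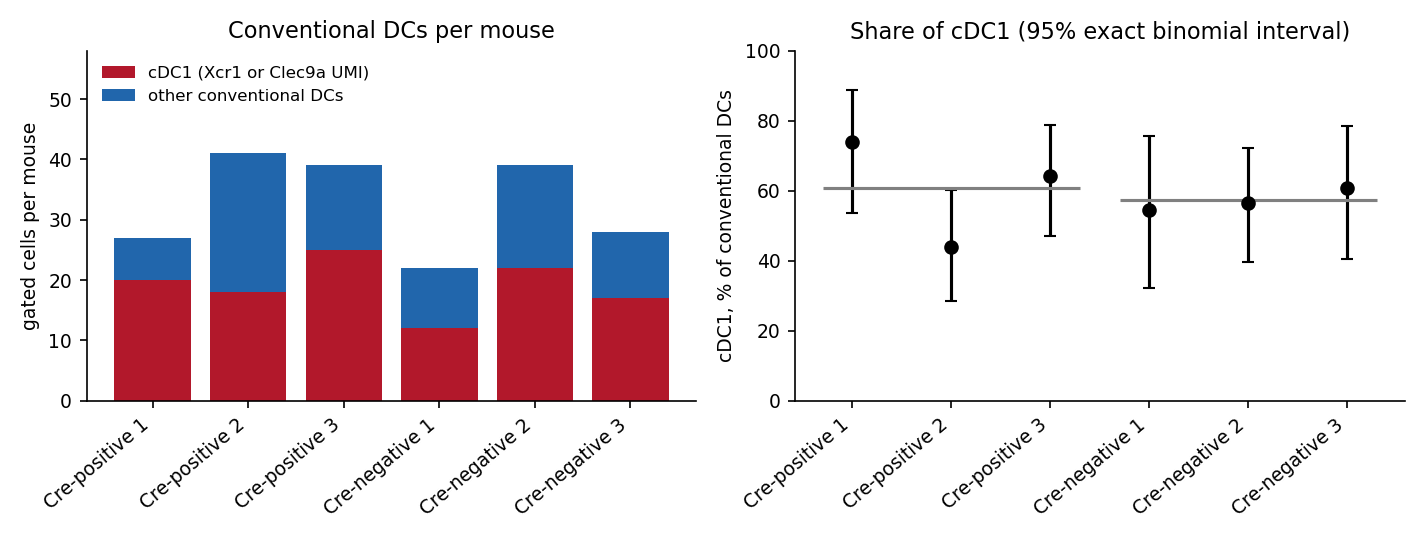
Left, number of conventional dendritic cells per mouse, split into cDC1 and Xcr1/Clec9a-negative cells (drawn as other); right, share of cDC1 in each mouse (percent) with 95% exact binomial intervals, which cover counting error only, and group means as grey lines. Cre-positive mice stand left of Cre-negative mice, and the cDC1 share of the 3 Cre-positive mice spans that of the 3 Cre-negative mice.

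The edges of the rule show how few UMIs it rests on. No gated cell had exactly 2 UMIs of H2-Aa, and 1 barcode missed the gate with 1 UMI. In contrast, 78 cells entered with exactly 2 of the 8 genes, and 126 barcodes that met every other condition had exactly 1. Another 146 barcodes were left out for Siglech alone, 95 for Fscn1 alone and 44 for Cd3e alone. Within the gate, Xcr1 was detected in 93 of 114 cDC1, Clec9a in 78 and both in 57. Flt3, the receptor for the dendritic cell growth factor, was detected in 42 of 114 cDC1 and 54 of 82 Xcr1/Clec9a-negative cells. Zbtb46, a transcription factor of the conventional lineage, was detected in 13 of 114 and 25 of 82. Itgax, which encodes CD11c, was detected in 27 of 114 and 53 of 82. These are genes of the rule and are given as a description.

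Genes outside the rule set most cDC1 apart and left the Xcr1/Clec9a-negative cells mixed. Irf8 was detected in 103 of 114 cDC1 (90.4%) and 14 of 82 Xcr1/Clec9a-negative cells (17.1%). Sirpa, an inhibitory receptor that recognises CD47, was detected in 3 of 114 (2.63%) and 47 of 82 (57.3%). At least 1 of the cDC2 genes Sirpa, Irf4, Cd209a, Clec10a, Mgl2 and Itgam was detected in 7 of 114 cDC1 and 68 of 82 Xcr1/Clec9a-negative cells; Cd209a and Clec10a also counted in the rule. Naaa, Cadm1 or Tlr3, cDC1 genes outside the rule, were detected in 99 of 114 cDC1 and in 34 of 82 Xcr1/Clec9a-negative cells (41.5%). Irf8 without any cDC2 gene was seen in 99 of 114 cDC1 and 9 of 82 Xcr1/Clec9a-negative cells. The Xcr1/Clec9a-negative cells of Cre-negative mouse 1 stood apart: 5 of its 10 held Irf8, against 1, 3 and 2 cells in Cre-positive mice and 1 and 2 in the other Cre-negative mice, and its levels of Irf8, Naaa, Ppt1, Mpeg1, Cd207 and Cst3 were the highest of that subset. Cst3, which encodes the protease inhibitor cystatin C and is abundant in dendritic cells, was present in 114 of 114 and 81 of 82. Csf1r, a monocyte and macrophage gene, was present in 1 of 114 and 24 of 82, and Fcgr1, another such gene, in no gated cell. With Csf1r in 24 and Naaa, Cadm1 or Tlr3 in 34 of the 82, the Xcr1/Clec9a-negative cells keep that name here. They are not called cDC2. Monocyte markers summed to between 656 and 1577 UMIs per 1000000 UMIs (CPM) in cDC1 of Cre-positive mice and 653 to 938 CPM in cDC1 of Cre-negative mice. In Xcr1/Clec9a-negative cells they summed to 2789 to 3268 CPM in Cre-positive mice and 1360 to 4341 CPM in Cre-negative mice, while Fcgr1, S100a8, S100a9, F13a1, Chil3, Fn1, Vcan and Ace were at 0 in all gated cells. Their part in the results on those cells was not tested.

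Many genes known for the cDC1 and cDC2 lineages differed between the 2 subsets, though they did not lead every ranking. Among genes of at least 50 CPM that were higher in cDC1 in 6 of 6 mice, Irf8 ranked 8 and Naaa 13 by pooled ratio. The genes lower in cDC1 were led by H2-M2, Sirpb1a and Ctnnd2. All values that set cDC1 against Xcr1/Clec9a-negative cells, or conventional against migratory cells, describe the contrast that defined the cells, so no test is given for them. Levels are CPM within each subset of each mouse, given as the lowest, median and highest of 6 mice. Irf8, the lineage factor, had 703, 1049 and 1352 CPM in cDC1 and 25.5, 52.0 and 227 CPM in Xcr1/Clec9a-negative cells. Every cDC1 value lay above every value of the other subset, and the pooled level was 15.2-fold higher. Naaa, which encodes a lysosomal lipid amidase, had 429, 565 and 848 CPM in cDC1 against 0, 49.6 and 247 CPM. Ppt1, a lysosomal thioesterase, had 1128, 1473 and 1969 CPM in cDC1 against 43.8, 113 and 701 CPM. Neither gene overlapped between the subsets. The highest level of the other subset came from Cre-negative mouse 1 for these genes; without that mouse the pooled log2 ratio was 4.19 in place of 3.93 for Irf8, 3.97 in place of 3.39 for Naaa and 3.59 in place of 3.11 for Ppt1. Tlr3, the endosomal sensor of double-stranded RNA, had 29.0, 89.1 and 181 CPM in cDC1 against 0, 9.76 and 41.2 CPM, and these ranges met. Batf3 separated the subsets less, with 162, 197 and 237 CPM in cDC1 against 25.5, 125 and 268 CPM.

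Surface genes of the cDC1 were as distinct. Cd8a, the co-receptor chain that resident cDC1 share with T cells, had 148, 174 and 268 CPM in cDC1 against 0, 4.35 and 20.6 CPM. It was detected in 53 of 114 cDC1 (46.5%, exact interval 37.1% to 56.1%, over pooled cells of 6 mice and for counting error only) and 5 of 82 Xcr1/Clec9a-negative cells, and in 0.995% of gated B cells, which lack it and had median depths of 3929.5 to 5240 UMIs per mouse. Cd207, which encodes langerin, had 214, 265 and 411 CPM in cDC1 against 0, 10.8 and 165 CPM. It was detected in 56 of 114 cDC1 (49.1%), in 5 of 82 Xcr1/Clec9a-negative cells and in 0.0343% of gated B cells. Itgae, the integrin chain CD103, had 93.5, 96.0 and 109 CPM in cDC1, with 3 UMIs in all Xcr1/Clec9a-negative cells. Ly6a, which encodes Sca-1, had 367, 577 and 832 CPM in cDC1 against 0, 15.8 and 43.5 CPM, a 31.2-fold higher pooled level. Cd36, a scavenger receptor, had 112, 129 and 224 CPM against 0, 2.70 and 82.4 CPM. All of these were higher in cDC1 in 6 of 6 mice.

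Abundant secreted products also stood apart. Cst3 had 14175, 20730 and 23967 CPM in cDC1 against 2109.6, 4455.4 and 9211.2 CPM in Xcr1/Clec9a-negative cells, with no overlap. Cxcl9, a chemokine that draws Cxcr3-bearing T cells, had 442, 862 and 1785 CPM in cDC1 against 0, 48.7 and 309 CPM. Il1b ran the other way, with 0, 182 and 461 CPM in cDC1 against 289, 1093 and 2064 CPM. Il12b had 0 UMIs in either subset.

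Genes lower in cDC1 were led by H2-M2, a nonclassical class I gene, with 0 UMIs in cDC1 and 154 UMIs in Xcr1/Clec9a-negative cells, at least 60.4-fold lower against a floor of 3 UMIs over all mice. Sirpa had 8 UMIs in all cDC1 and 107 UMIs in Xcr1/Clec9a-negative cells, where its level was 144, 169 and 252 CPM. Its cDC1 UMIs came from Cre-positive mice 2 and 3, and the other 4 mice had 0. Irf4 had 2 and 32 UMIs and Mgl2, a lectin of cDC2, 0 and 16 UMIs. Klf2, a transcription factor of quiescence and trafficking, had 10.5, 87.6 and 243 CPM in cDC1 against 1504, 2217 and 3911 CPM. S100a4, a calcium-binding protein of myeloid cells, had 0, 39.1 and 243 CPM against 866, 1246 and 2122 CPM. Klf4 had 0, 38.9 and 156 CPM against 363, 561 and 875 CPM. None of the 3 overlapped between the subsets. Cd4, present on many splenic cDC2, was detected in 7 of 114 cDC1 (6.14%) and 21 of 82 Xcr1/Clec9a-negative cells (25.6%, exact interval 16.6% to 36.4%, again for counting error only), against 1.05% of gated B cells and 63.0% of gated plasmacytoid cells.

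**Figure D2:**
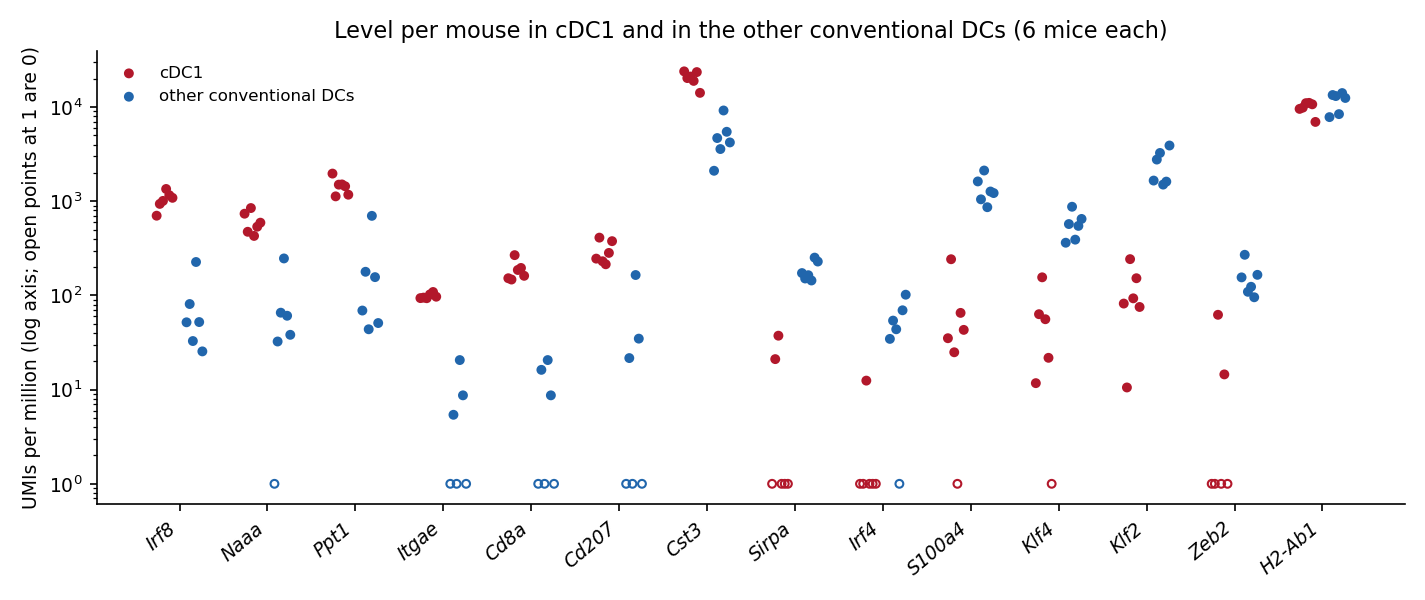
Level of 14 genes in each mouse on a log axis of CPM, with cDC1 left of Xcr1/Clec9a-negative cells; open points drawn at 1 stand for 0. Irf8, Naaa, Ppt1, Itgae, Cd8a, Cd207 and Cst3 sit higher in cDC1, S100a4, Klf4, Klf2, Zeb2 and Sirpa sit lower, and H2-Ab1 overlaps.

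By list, 23 of 26 cDC1 program genes with at least 10 UMIs were higher in cDC1, 14 of them in 6 of 6 mice, with a median log2 ratio of 2.60. Of 29 cDC2 program genes, 26 were lower in cDC1, 20 of them in 6 of 6 mice, with a median of -3.16. Across all 7216 genes with at least 10 UMIs, 4.0% were higher and 14.8% lower in cDC1 in 6 of 6 mice, with a median of -0.61, so the background leans to lower values in cDC1. Of 25 transcription factors, 5 were higher and 20 lower in cDC1, against 2058 higher and 5158 lower of all 7216 genes. Id2, an inhibitor of E proteins that cDC1 need, had a pooled level of 814 CPM in cDC1 and 394 CPM in Xcr1/Clec9a-negative cells. Zeb2, a repressor with a role opposite to Id2, had 17.7 and 172 CPM. Tcf4, an E protein of plasmacytoid cells, had 16.2 and 134 CPM, and Relb, an NF-kB subunit, 66.3 and 252 CPM. Spi1, which encodes PU.1, had 341 and 477 CPM.

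Antigen presentation genes of class II were lower in cDC1 as a group but close in level for the abundant ones. All 17 class II presentation genes outside the rule with at least 10 UMIs had a lower pooled level in cDC1, 7 of them in 6 of 6 mice, with a median log2 ratio of -1.02. Of all 7216 genes with at least 10 UMIs, 5158 had a lower pooled level. H2-Ab1, a class II chain, had 6963.7, 10291 and 11094 CPM in cDC1 against 7833.2, 12808 and 14102 CPM, and these ranges overlapped. Cd74, the invariant chain, had 16816, 20672 and 21882 CPM against 18917, 27530 and 30021 CPM, which overlapped too. H2-DMb2, a chain of the peptide editor H2-M, did not overlap, with 65.3, 124 and 200 CPM in cDC1 against 639, 859 and 1000 CPM. Ciita, the class II master regulator, had pooled levels of 66.3 and 224 CPM. Class I and cross-presentation genes were split, 15 higher and 13 lower of 28 with a median of 0.07; H2-K1 had 1496 CPM in cDC1 and 1380 CPM in Xcr1/Clec9a-negative cells. All 28 immediate early genes, which respond fast to handling and signals, were lower in cDC1, against 5158 of all 7216 genes. In 6 of 6 mice 21 of the 28 were lower, against 14.8% of all genes.

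A nuclear transcript that was not among the genes of the gate divided the cells, though its share moved with the gate. Malat1, a long noncoding RNA kept in the nucleus (chr19:5795690-5802672, minus strand, GENCODE annotation of GRCm38), was under 2000 CPM in 129 of 196 conventional dendritic cells (65.8%) and at 0 UMIs in 80. The share was 100 of 114 in cDC1 (87.7%) and 29 of 82 in Xcr1/Clec9a-negative cells (35.4%). It was 65.0% of 300 migratory cells, 27.2% of 162 plasmacytoid cells, 0.823% of 11662 B cells and 0.625% of 36022 T cells. Per mouse the share ran between 83.3% and 95% in cDC1 and between 26.1% and 60.0% in Xcr1/Clec9a-negative cells. The threshold was chosen after the values were seen. Malat1-low cells had medians of 4052 UMIs, 994 genes, 37.8% ribosomal protein UMIs and 2.11% mitochondrial UMIs, and Malat1-high cells had 9337 UMIs, 2648 genes, 20.3% and 4.09%.

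**Figure D3:**
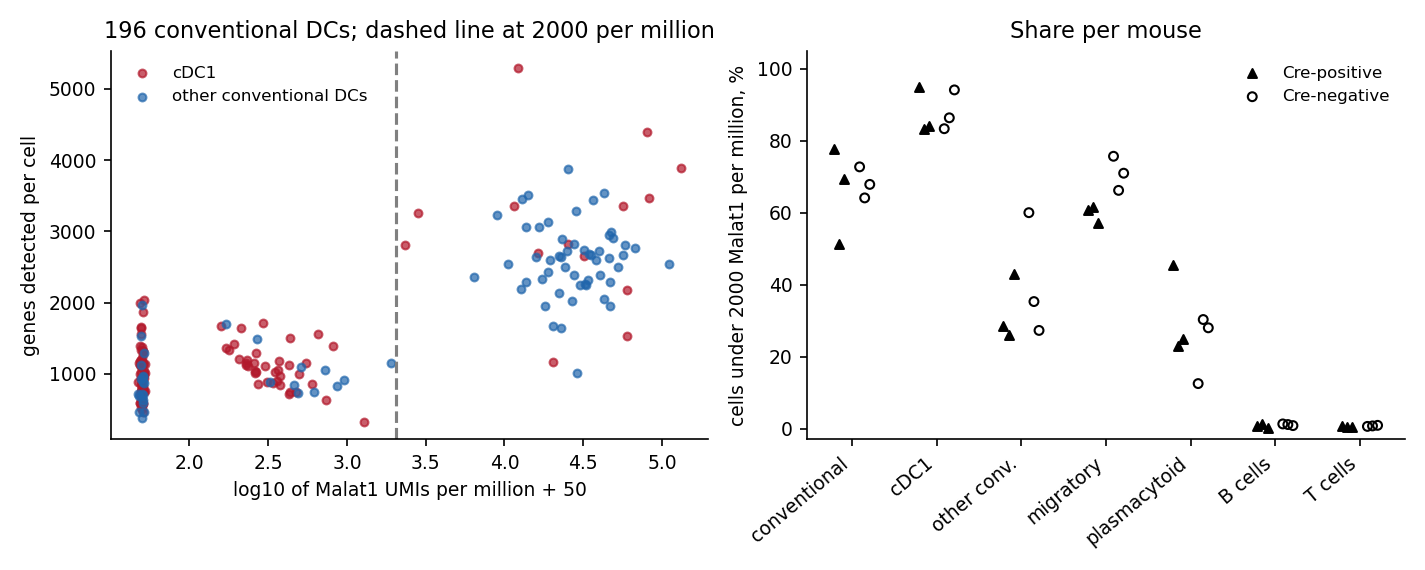
Left, genes detected (y axis) against the log10 Malat1 level (x axis, CPM with a constant added, dashed line at 2000 CPM) in each conventional dendritic cell; right, percent of cells under 2000 CPM of Malat1 in each mouse for conventional dendritic cells, their subsets (Xcr1/Clec9a-negative cells drawn as other) and the migratory, plasmacytoid, B and T cell gates. The conventional cells fall into a Malat1-high and a Malat1-low group, and the B and T cell gates lie near 0 in every mouse.

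Because 77.5% of Malat1-low cells and 20.9% of Malat1-high cells were cDC1, the subset contrasts were repeated within each class. Malat1-high cDC1 were only 14 cells, 1 to 4 per mouse, pooled over 6 mice. They held 223785 UMIs, and the largest cells gave 32045, 31488, 26215, 22134, 20543 and 19233 of these. Of the 14 cells, 3 had doublet scores among the highest. Values for Malat1-high cDC1 rest on these few cells. Irf8 had 1421 CPM in Malat1-high cDC1 against 10.4 CPM in Malat1-high Xcr1/Clec9a-negative cells, and 878 against 370 CPM among Malat1-low cells, a 137-fold and a 2.37-fold excess. Naaa had 653 against 39.5 CPM among Malat1-high cells and 600 against 159 CPM among Malat1-low cells. S100a4 had 174 against 1383 CPM among Malat1-high cells and 8.80 against 1057 CPM among Malat1-low cells. The 30 genes named by the subset rule had the same direction in both classes; they had been chosen on these same cells for the size of that ratio, so this is a description. Sirpa had 8 UMIs in cDC1 and 107 UMIs in Xcr1/Clec9a-negative cells among Malat1-high cells and none in any Malat1-low cell.

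Class II genes did not keep theirs. Among Malat1-high cells all 17 were lower in the 14 cDC1. Among Malat1-low cells 8 were higher and 7 lower of 15. Cd74 had 17918 CPM in cDC1 against 28164 CPM among Malat1-high cells, and 21585 against 18953 CPM among Malat1-low cells. H2-Ab1 did the same, with 9162 against 12931 CPM and 10518 against 9736 CPM. The cDC1 list had 23 of 26 higher among Malat1-high cells and 18 of 23 among Malat1-low cells. The cDC2 list had 25 of 27 lower and 13 of 16 lower. Of all genes with at least 10 UMIs, 3876 of 6336 were lower in cDC1 among Malat1-high cells (median log2 ratio -0.25) and 2399 of 3502 among Malat1-low cells (-0.35). Fos, an immediate early factor, had 912 CPM in Malat1-high cDC1 and 2.20 CPM in Malat1-low cDC1, and 1487 and 10.6 CPM in the Xcr1/Clec9a-negative cells. Il1b, pooled over both subsets, had 1232 CPM in Malat1-high and 32.8 CPM in Malat1-low cells. Its subset levels within each class are not given here. All 28 immediate early genes were lower in Malat1-low than in Malat1-high cells, as were 5537 of 7216 genes. The part of Malat1-associated RNA content in the subset contrasts was not tested beyond this split.

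**Figure D4:**
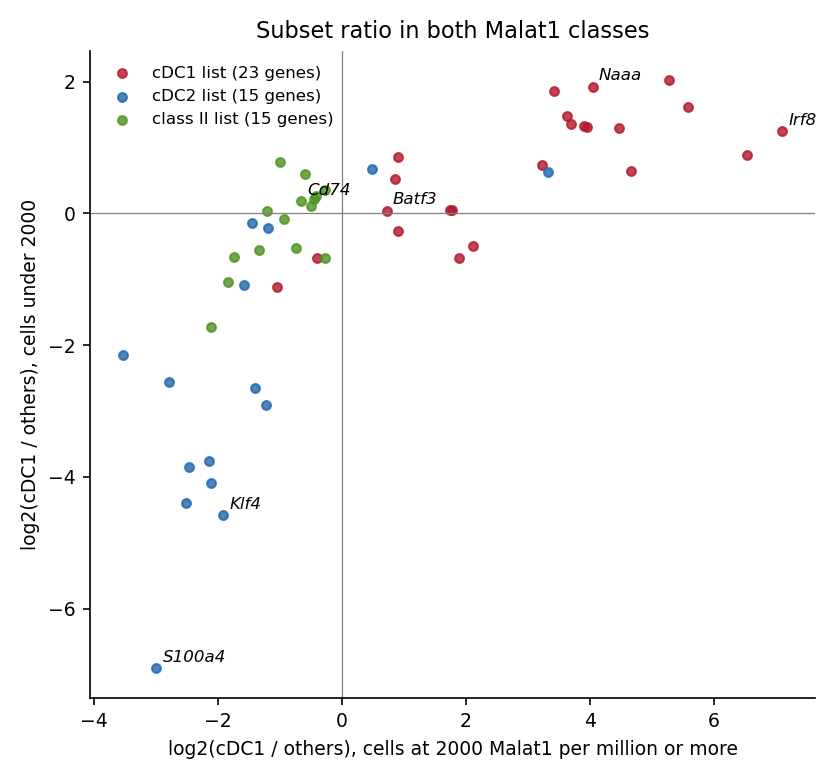
Log2 ratio of cDC1 over Xcr1/Clec9a-negative cells among Malat1-high cells (x axis) and Malat1-low cells (y axis), 1 point per gene of the cDC1, cDC2 and class II lists with enough UMIs in both. Most cDC1 genes lie to the upper right and most cDC2 genes to the lower left, while class II genes lie left of 0 on the x axis and on both sides of 0 on the y axis.

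Against the migratory gate, which required a UMI of both Fscn1 and Ccr7, conventional cells had low levels of maturation genes and higher levels of most uptake genes; absence of Fscn1 was part of their own rule. Ccr7, the receptor that guides cells into the node and a gene of the migratory gate, had a pooled level of 31.9 CPM in conventional and 1817 CPM in migratory cells, with 5 of 114 cDC1 and 13 of 82 Xcr1/Clec9a-negative cells holding a UMI. Ccl22, a chemokine that attracts Ccr4-bearing T cells, had 7.17 and 467 CPM. All 34 migration and maturation genes, Ccr7 among them, were lower in conventional cells, 31 of them in 6 of 6 mice, against 9.95% of 9248 genes lower in 6 of 6 mice and 12.1% higher. Naaa was 54.4-fold and Ppt1 41.9-fold higher in conventional cells, and Cd207 had 210 UMIs against 1. Of 13 uptake receptor genes, 11 had a higher pooled level in conventional cells, 5 of them in 6 of 6 mice, against 5100 of all 9248 genes with a higher pooled level. The shares of Malat1-low cells in these gates were 65.8% and 65.0%.

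The 196 cells formed 4 clusters, which are given by number since their genes also formed them. Cluster 1 held 76 cells, 69 of them cDC1 and 1 Malat1-high, and was led by Gbp2b, Pmf1, Txn1, Aif1 and Rab32. Cluster 2 held 52 cells, 3 of them cDC1 and 51 Malat1-high, and was led by Atf3, Rhob, Ccr1, Sirpa and Tnip3. Cluster 3 held 41 cells, 18 of them cDC1, led by Magohb, Atad2, Ncoa7, Mcm6 and Rab7b, and 5 of the 7 cells of highest doublet score. Cluster 4 held 27 cells, 24 of them cDC1 and none Malat1-high, led by Bst1, Ly6a, Serpinb9, Itgae and Ly75. Mki67 or Top2a, genes of dividing cells, were detected in 6 of 114 cDC1 and 9 of 82 Xcr1/Clec9a-negative cells. Of 22 cell cycle genes with at least 10 UMIs, 20 had a higher pooled level in cDC1, none of them in 6 of 6 mice (median log2 ratio 1.31). Of all 7216 genes 2058 had a higher pooled level. Among Malat1-high cells 17 of 17 cell cycle genes were higher in cDC1, which were 14 cells there, and among Malat1-low cells 6 of 11.

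The abundance of conventional dendritic cells did not differ detectably between genotypes. They made up 0.353% ± 0.0822 of filtered cells in Cre-positive mice and 0.345% ± 0.0924 in Cre-negative mice (SD, n = 3 each; two-sided exact permutation test, p = 1, where 3 against 3 mice cannot go below 0.1). The cDC1 share was 60.7% ± 15.4 in Cre-positive mice and 57.2% ± 3.16 in Cre-negative mice (exact permutation p = 0.7). It depended on the definition: with at least 2 UMIs of Xcr1 and Clec9a together it was 39.1% ± 6.59 in Cre-positive mice and 38.0% ± 11.3 in Cre-negative mice, and with Wdfy4 also counted it was 94.2% ± 2.95 and 93.9% ± 3.61. The 3 Cre-positive mice gave 74.1%, 43.9% and 64.1%, against 54.5%, 56.4% and 60.7% in the Cre-negative mice, so the groups overlapped. Cells with Mki67 or Top2a made up 7.47% ± 0.196 in Cre-positive mice and 7.96% ± 7.10 in Cre-negative mice (exact permutation p = 1). Malat1-low cells made up 66.1% ± 13.6 in Cre-positive mice and 68.2% ± 4.32 in Cre-negative mice (exact permutation p = 0.9).

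Between genotypes no gene passed the threshold in any comparison. Summed counts per mouse were tested by edgeR's quasi-likelihood test with Benjamini-Hochberg adjustment at 0.05. Across all conventional dendritic cells 0 of 2440 genes were called (0.0%), with 57 (2.34%) at an unadjusted p under 0.05 and 0 called by DESeq2. In cDC1 0 of 949 were called (0.0%), with 31 (3.27%) under 0.05 unadjusted and 0 by DESeq2. In Xcr1/Clec9a-negative cells 0 of 1183 were called (0.0%), with 15 (1.27%) and 0 by DESeq2. The genotype effect in cDC1 minus that in Xcr1/Clec9a-negative cells was called for 0 of 1496 genes (0.0%; 57 or 3.81% unadjusted), and the effect in conventional minus that in migratory cells for 0 of 2786 (0.0%; 77 or 2.76% unadjusted); DESeq2 also called 0 in either. The smallest adjusted p was 0.996 across all cells. Groups of 3 mice did not overlap for 173 genes (7.09%) in all conventional dendritic cells, 71 (7.48%) in cDC1 and 74 (6.26%) in Xcr1/Clec9a-negative cells.

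The genes of smallest p are named as a description, since none passed. Nsmaf, which encodes an adaptor of the TNF receptor, had 76.8, 104 and 75.4 CPM in Cre-positive mice and 19.3, 39.6 and 29.2 CPM in Cre-negative mice (log2 fold change 1.44 ± 0.40 SE, edgeR adjusted p = 0.996). Odc1, the first enzyme of polyamine synthesis, had 41.9, 64.3 and 23.8 CPM in Cre-positive mice and 96.3, 115 and 99.2 CPM in Cre-negative mice (-1.27 ± 0.38, edgeR adjusted p = 0.996). For both the groups did not overlap. Cct3, a chaperonin subunit, had 97.8, 57.2 and 87.3 CPM in Cre-positive mice and 237, 150 and 134 CPM in Cre-negative mice, again without overlap. Tsc22d1, Slc25a11, Nedd9, Taf15, Rnf19b, Dhx15 and Gpr141 completed the 10, all with higher means in Cre-positive mice.

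No gene that marks the subsets passed the test between genotypes. Xcr1 averaged 257 ± 140 CPM in Cre-positive mice and 207 ± 50.2 CPM in Cre-negative mice (SD, n = 3 each), Clec9a 117 ± 62.9 and 140 ± 45.3 CPM, and Flt3 141 ± 35.5 and 124 ± 3.57 CPM. Irf8 averaged 489 ± 148 CPM in Cre-positive mice and 753 ± 217 CPM in Cre-negative mice (log2 fold change -0.63 ± 0.27 SE, edgeR adjusted p = 0.996). Within cDC1 alone Irf8 had 703, 938 and 1010 CPM in Cre-positive mice and 1351, 1161 and 1089 CPM in Cre-negative mice, without overlap and with an edgeR adjusted p of 0.999 (log2 fold change -0.39 ± 0.19 SE). Ltb, a TNF family cytokine of lymphoid tissue, averaged 481 ± 56.7 CPM in Cre-positive mice and 290 ± 35.1 CPM in Cre-negative mice (0.69 ± 0.25, edgeR adjusted p = 0.996). Cd74 averaged 22950 ± 1774 CPM and 22700 ± 2688 CPM, and Batf3 165 ± 3.69 and 169 ± 48.1 CPM.

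**Figure D5:**
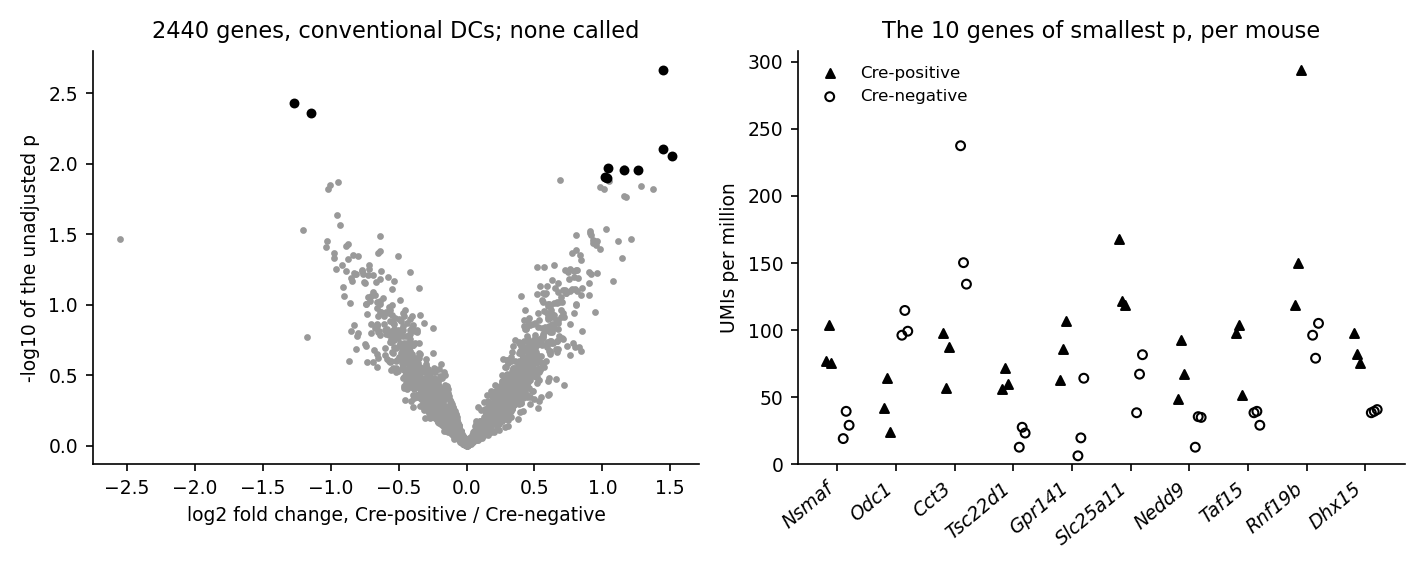
Left, log2 fold change of Cre-positive over Cre-negative mice against -log10 of the unadjusted p for the genes tested in all conventional dendritic cells; right, level (CPM) of the 10 genes of smallest p in each mouse, Cre-positive left of Cre-negative. No gene passed an adjusted p of 0.05, and the 10 genes shown are those named by rank of p.

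In Xcr1/Clec9a-negative cells Cst3 had 2109, 4693 and 3587 CPM in Cre-positive mice and 9209, 5471 and 4216 CPM in Cre-negative mice, with overlap (log2 fold change -0.90 ± 0.32 SE, edgeR adjusted p = 0.998). Without Cre-negative mouse 1, whose cells of this subset carried the most Irf8, the log2 fold change was -0.46. Cst3 is itself higher in cDC1, and whether such cells had a part in its fold change was not tested. In cDC1 its level overlapped between genotypes too (0.24 ± 0.19, edgeR adjusted p = 0.999). Plek, a substrate of protein kinase C, led the cDC1 by p, with 141, 232 and 224 CPM in Cre-positive mice and 74.6, 109 and 32.3 CPM in Cre-negative mice and no overlap (1.45 ± 0.41, edgeR adjusted p = 0.999). Hspa5, the chaperone BiP, had 305, 369 and 249 CPM in cDC1 of Cre-positive mice and 811, 472 and 291 CPM in cDC1 of Cre-negative mice. These overlapped, and the log2 fold change was -0.74, or -0.37 without Cre-negative mouse 1. Herpud1, a gene of endoplasmic reticulum stress, averaged 122 ± 24.9 CPM in Cre-positive mice and 232 ± 24.3 CPM in Cre-negative mice (SD, n = 3 each) and did not overlap.

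By list, 0 genes were called in any group of all conventional dendritic cells. Among 20 tested cDC2 program genes 17 had a positive and 3 a negative log2 fold change (median 0.40), and among 19 cDC1 program genes 9 were positive and 10 negative (median -0.05), against 1209 positive and 1231 negative of all 2440 (median -0.01). Of 24 immediate early genes 22 were positive (median 0.29), and of 20 class I and cross-presentation genes 5 (median -0.12). Within Xcr1/Clec9a-negative cells 10 of 17 tested cDC2 program genes were positive and 7 negative (median 0.15), and within cDC1 7 of 7 were positive (median 0.28). The cDC1 program had 3 positive and 4 negative (median -0.30) and 10 positive and 6 negative (median 0.17). The part of the subset mix of each mouse in the values of all cells was not tested. In cDC1, all 10 tested immediate early genes were positive with a median of 1.18, against 499 positive and 450 negative of all 949 genes (median 0.02). In Xcr1/Clec9a-negative cells 8 were positive and 13 negative with a median of -0.10, against 554 positive and 629 negative of all 1183 (median -0.02). Junb, an AP-1 subunit of that list, had 82.0, 559 and 573 CPM in cDC1 of Cre-positive mice and 205, 210 and 183 CPM in Cre-negative mice; it overlapped. In the cDC1 comparison Junb and Pim1 were called without Cre-positive mouse 1 (edgeR adjusted p = 0.0491 each) and under no other alternative run. Malat1 in cDC1 had 4406.7, 4123 and 31567 CPM in Cre-positive mice and 4213.7, 11141 and 38203 CPM in Cre-negative mice. Malat1-high cDC1, in which Fos was far higher than in Malat1-low cDC1, numbered 1, 3 and 4 in Cre-positive mice. In Cre-negative mice they numbered 2, 3 and 1. The summed counts weigh UMIs, not cells. In Cre-positive mice these cells held 6076 of 85344 cDC1 UMIs, then 9999, 3200 and 12860 of 94854. In Cre-positive mouse 3 they held 6362, 31488, 22134 and 9501 of 160453. In Cre-negative mice they held 32045 and 19233 of 107300, then 20543, 10109 and 14020 of 137807, then 26215 of 92787. The part of Malat1 and of these few cells in the list medians was not tested. B cell markers summed to 262 to 286 CPM in Cre-positive mice and 257 to 309 CPM in Cre-negative mice, and T cell markers to 115 to 225 and 109 to 199 CPM, with Cd8b1 and Fcmr at 0. Of the 6 genes that an earlier analysis of these data had called in T cells, 1 was tested here, Tnfaip3, an NF-kB inhibitor, with 89.9 ± 44.1 CPM in Cre-positive mice and 96.2 ± 49.3 CPM in Cre-negative mice.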

How the data were processed

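Per the labels' protocols, single-cell suspensions of pancreatic lymph nodes of 3 Cre-positive and 3 Cre-negative mice were run as 10x Genomics libraries; the authors deposited a matrix of UMI counts per gene and barcode for each mouse. Per the submitters' processing notes, Cell Ranger 6.1.2 and mm10 were used; the annotation release is not given in the sources used here. The floxed gene is not reported here. Members and gene lists were chosen with earlier results of these data known. UMI counts were summed per mouse, and CPM was computed from those sums. Genotypes were compared with edgeR 4.0.16 (TMM, filterByExpr, quasi-likelihood, Benjamini-Hochberg at 0.05), the subset and migratory differences with mouse as a block; DESeq2 1.42.0 was an alternative, and shares had exact permutation tests. The edgeR steps were also run on simulated counts with a fixed dispersion and large planted changes. That run does not measure the power for the sums of few cells compared here. The 10 genes of smallest p at 10 CPM or more, and the 15 genes of largest subset ratio in each direction, were named. Clusters used scanpy 1.11.5. Each mouse's summed UMIs ran between 143183 and 279793. Replicates are separate mice per the labels.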

Additional observations from a re-analysis of the deposited data

How the results depend on the processing

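Under the alternatives 124 values kept their count of called genes or the sign of their share difference. Another 10 counts moved and 18 share differences changed sign. The size of a share difference was not judged: that of the cDC1 share was 3.47 in all mice and 11.9 without Cre-positive mouse 2. In all conventional dendritic cells 1 gene each was called under a pair of alternatives (1 without the low-count filter, Mmp12, and 1 with the replicate block, Ncoa7). For cDC1 minus Xcr1/Clec9a-negative cells 1 gene was called when further lymphocyte genes were barred (Junb) and 1 without the filter (Ahnak); for conventional minus migratory cells 1 without the filter (Gm26917). Leaving out each mouse gave 0 to 0 called genes in all conventional cells, 0 to 2 in cDC1 (Junb and Pim1 without Cre-positive mouse 1), 0 to 0 in Xcr1/Clec9a-negative cells, 0 to 4 for the subset difference (Ahnak without Cre-negative mouse 2; Btg2, Atf3, Ccrl2 and Egr1 without Cre-negative mouse 3) and 0 to 1 for the migratory difference (Cxcl9 without Cre-positive mouse 3; Lyz2 without Cre-negative mouse 1).

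Differences in shares, in percentage points of Cre-positive minus Cre-negative mice, changed sign. The share of conventional dendritic cells was -0.0398 with a 5% mitochondrial limit, -0.00638 with at least 2000 UMIs and -0.0189 after thinning to 2000 UMIs, and -0.0227 to 0.0616 without single mice. The cDC1 share was -0.291 in Malat1-high cells and -2.98 after thinning, and -3.22 to 11.9 without single mice. The Malat1-low share was 3.82 with the 5% limit and -8.00 to 5.28 without single mice. The cycling share was 0.599 with further lymphocyte genes barred, 1.49 in Malat1-low cells and 0.145 after thinning, and -4.47 to 2.34 without single mice. The genotype effect on Hsp90aa1 in conventional minus that in migratory cells was -1.02 on the log2 scale in all cells and 0.192 in Malat1-low cells. The cause was not tested in any of these. The Malat1 splits were chosen after seeing the data.

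The labels state no pairing of mice, so the replicate numbers were not taken as 1. Same-numbered mice had correlations of 0.369, 0.168 and 0.0674 in their deviations from the group means, and differently numbered mice -0.378 to 0.311. Deviations of 3 mice from their own mean depend on each other, so these values cannot decide on a pairing. The replicate block gave 1 call in all conventional cells and 0 in each subset. Leaving out the block for mouse gave 0 calls for either difference. Over 226 listed genes, 107 of 3164 subset ratios changed sign under an alternative. Of the 196 cells, 15 had under 2000 UMIs and were left out by thinning.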
